A study of Homo sapiens with 12 samples.

Results

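The 8 genes examined here, CALB1, SH2D4A, PDPN, MARVELD1, CLMP, ZNF114, NEURL1 and BCAT1, were picked by name from 59498 gene identifiers because their transcripts were lower in cisplatin-resistant than in parental cells and higher again after a knockout in the resistant cells. The cells are SKOV-3, an established ovarian adenocarcinoma line of human origin, and their poly(A) RNA was read in 4 groups of 3 libraries. These were parental cells of WT genotype, parental cells with a double knockout (dKO) of KDM5A and KDM5B, the cisplatin-resistant line SKOV-3 CDDP of WT genotype, and SKOV-3 CDDP with the same dKO. The labels give no drug exposure at harvest, no knockout clones or pools and no separate cultures, so a p-value here reflects the spread among these particular libraries and that spread may be technical. All 8 genes are among 26 of 17947 genes tested (0.145%) that edgeR called lower in resistant cells and higher in resistant dKO cells. All values from those 2 contrasts are therefore a description of how the genes were chosen, and no test of them is given.

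KDM5A and KDM5B remove methyl groups from lysine 4 of histone H3, a mark found at active promoters. Genes that fall silent in a drug-resistant line can do so through chromatin, through loss of an activating factor, or because the surviving cells never expressed them. The 8 genes do not form a known pathway. CALB1 encodes calbindin, a calcium buffer with EF-hand domains, and SH2D4A a signalling adaptor with an SH2 domain. PDPN encodes podoplanin, a mucin-type membrane glycoprotein of mesothelium and lymphatic endothelium. MARVELD1 encodes a membrane protein with a MARVEL domain, the fold of occludin, and CLMP an adhesion molecule of the CXADR family at cell junctions. ZNF114 is a zinc finger gene, NEURL1 encodes an E3 ubiquitin ligase related to Drosophila Neuralized, which acts on Notch ligands, and BCAT1 the cytosolic aminotransferase of branched-chain amino acids.

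Promoter windows, from 250 bases before to 50 after a transcription start, were found for 4 of the 8 genes in RefSeq on GRCh38.p14, in 10 windows. They are shown because the knockout targets factors that act at promoters. The letters CCGCCC, reported to be recognised by the DNA-binding domain of KDM5A, were searched on both strands and are in capitals in the window of each gene that holds them (GGGCGG when read on the other strand). The windows are chr1:13583507-13583806 (plus strand) for PDPN, chr10:97713480-97713779 (plus) for MARVELD1, chr10:103493455-103493754 (plus) for NEURL1 and chr12:24949052-24949351 (minus) for BCAT1, each read 5′ to 3′.
PDPN: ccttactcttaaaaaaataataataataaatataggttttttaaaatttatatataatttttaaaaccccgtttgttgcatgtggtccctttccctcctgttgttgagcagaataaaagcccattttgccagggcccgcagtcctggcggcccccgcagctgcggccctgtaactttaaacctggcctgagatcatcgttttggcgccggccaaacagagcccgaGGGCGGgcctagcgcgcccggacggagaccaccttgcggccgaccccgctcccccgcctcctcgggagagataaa
MARVELD1: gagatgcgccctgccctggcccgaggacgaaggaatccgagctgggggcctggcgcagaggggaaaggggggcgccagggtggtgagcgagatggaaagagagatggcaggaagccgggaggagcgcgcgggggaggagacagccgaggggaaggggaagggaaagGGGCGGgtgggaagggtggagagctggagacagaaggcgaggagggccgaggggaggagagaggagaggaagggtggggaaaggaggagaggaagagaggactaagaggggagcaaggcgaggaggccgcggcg
NEURL1: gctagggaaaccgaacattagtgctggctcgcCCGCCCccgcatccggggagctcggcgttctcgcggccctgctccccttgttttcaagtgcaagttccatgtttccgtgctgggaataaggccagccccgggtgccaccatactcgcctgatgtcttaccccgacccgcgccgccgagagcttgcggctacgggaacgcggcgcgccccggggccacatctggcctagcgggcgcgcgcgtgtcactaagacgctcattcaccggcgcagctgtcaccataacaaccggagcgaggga
BCAT1: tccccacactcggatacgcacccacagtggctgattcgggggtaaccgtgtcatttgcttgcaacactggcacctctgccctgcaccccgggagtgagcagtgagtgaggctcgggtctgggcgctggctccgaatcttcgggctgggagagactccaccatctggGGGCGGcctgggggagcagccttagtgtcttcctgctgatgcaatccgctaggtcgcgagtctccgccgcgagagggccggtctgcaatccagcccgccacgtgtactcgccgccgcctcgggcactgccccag

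CCGCCC occurred in at least 1 window of each of the 4 genes and in 5 of the 10 windows, 2 of which are overlapping PDPN windows that share the match. Of all 35116 windows of this length, 45.0% held it. The letters GCACA, reported for the DNA-binding domain of KDM5B, occurred in 3 of the 10 windows against 42.3% of all. The printed windows, picked for holding the motif, had GC contents of 52.0% (PDPN), 68.3% (MARVELD1), 66% (NEURL1) and 66% (BCAT1), against a median of 58.7% over all windows. Their observed over expected CpG ratios were 0.95, 0.80, 1.05 and 0.70 in the same order, against a median of 0.58. Over all 10 windows the GC content ran from 46.7% to 74.3% and the CpG ratio from 0.37 to 1.05. These matches describe letters, not binding.

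Libraries held 15659352 to 19706754 counts. KDM5A measured 37.2 ± 5.6 CPM (counts scaled to a library of 1000000; SD, n = 3) in parental, 19.6 ± 3.6 in parental dKO, 37.4 ± 3.5 in resistant and 14.8 ± 2.8 in resistant dKO cells, and KDM5B 57.8 ± 19.3, 53.7 ± 26.9, 76.5 ± 36.0 and 56.6 ± 28.2. Every dKO library was below every control library for KDM5A, but for KDM5B the libraries overlapped, so its transcript level does not show the knockout and dKO is used here as the labels give it. Of 10 genes typical of ovarian carcinoma lines, 9 reached 1 CPM in parental and parental dKO, 8 in resistant and 10 in resistant dKO cells. Leukocyte markers summed to at most 1.19 CPM in any library. The fibroblast marker DCN reached 1 CPM in parental and parental dKO cells only. In all, fibroblast markers reached 1 CPM for 1 of 9 genes in parental, 3 in parental dKO, 5 in resistant and 6 in resistant dKO cells. Their sum ran from 1.97 to 8.79 CPM in parental, 2.55 to 28.6 in parental dKO, 349 to 959 in resistant and 2523 to 4463 in resistant dKO libraries, and its part in the results below was not tested. In bulk RNA, fewer cells with a transcript and less transcript per cell cannot be told apart.

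The genes lie on 6 chromosomes of GRCh38. By GENCODE release 29 they are CALB1 (ENSG00000104327, chromosome 8, 90058608 to 90095475), SH2D4A (ENSG00000104611, chromosome 8, 19313617 to 19396218), PDPN (ENSG00000162493, chromosome 1, 13583465 to 13617957) and MARVELD1 (ENSG00000155254, chromosome 10, 97713173 to 97718152). The others are CLMP (ENSG00000166250, chromosome 11, 123069865 to 123195281), ZNF114 (ENSG00000178150, chromosome 19, 48270102 to 48287608), NEURL1 (ENSG00000107954, chromosome 10, 103493979 to 103592552) and BCAT1 (ENSG00000060982, chromosome 12, 24810022 to 24949459).

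CALB1 was abundant in parental cells, nearly absent in resistant cells and low in resistant dKO cells. The 3 parental libraries measured 284, 226 and 223 CPM and the parental dKO libraries 114, 254 and 338. Each resistant library held 5 reads of CALB1, or 0.29, 0.30 and 0.26 CPM, and the resistant dKO libraries held 192, 207 and 203 reads, or 9.49, 11.4 and 12.5 CPM. The 2 parental groups overlapped, and the 2 resistant groups lay below them and apart from each other. On the log2 scale the change was -9.71 ± 0.50 (SE) from parental to resistant and 5.25 ± 0.44 from resistant to resistant dKO cells.

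The adaptor gene SH2D4A had 0 reads in all 3 resistant libraries. It measured 32.9, 50.6 and 38.9 CPM in parental, 21.1, 34.3 and 30.3 in parental dKO and 0.54, 0.94 and 1.60 in resistant dKO libraries, the last from 11, 17 and 26 reads. Against a floor of 3 counts over the 3 resistant libraries, resistant dKO cells were at least 17.4-fold higher. Library 1 of the resistant dKO group was lowest and library 3 highest, without overlap with any other group.

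Podoplanin transcripts followed the same outline with a larger return. PDPN measured 16.3, 15.5 and 28.6 CPM in parental, 10.9, 16.3 and 33.1 in parental dKO and 1.78, 1.94 and 4.56 in resistant dKO libraries, with 0 reads in the resistant ones. In each group with reads the library numbered 3 was the highest. The resistant dKO level was at least 46.7-fold above the floor. PDPN marks lymphatic endothelium and mesothelium, so their other markers were read beside it. Of 6 lymphatic endothelial genes 0 reached 1 CPM in parental or parental dKO cells and 1, FLT4, did in resistant and resistant dKO cells. Their sum ran from 0.42 to 2.79 CPM in parental, 1.10 to 3.44 in parental dKO, 5.25 to 9.50 in resistant and 7.46 to 13.3 in resistant dKO libraries, and LYVE1 was at 0 in the parental, resistant and resistant dKO groups. Of 7 mesothelial genes 3 reached 1 CPM in parental and in parental dKO, 4 in resistant and 6 in resistant dKO cells. Their sums were 36.2 to 76.8, 15.1 to 97.2, 42.3 to 90.9 and 75 to 86.5 CPM in the same order, and KLK11 was at 0 in resistant cells. MSLN and WT1 stand on this list and on that of ovarian carcinoma lines. In both lists they are the genes gained from resistant to resistant dKO cells. MSLN also reached 1 CPM in parental and parental dKO cells, whereas CALB2 and BNC1 did so only in resistant and resistant dKO cells. The part of these markers in the PDPN levels was not tested.

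The junction and membrane genes MARVELD1 and CLMP differed in whether reads were left in resistant cells. CLMP also had the higher parental level, so a difference in the size of the fall is not shown. MARVELD1 measured 16, 15.9 and 30.8 CPM in parental and 15.7, 19.1 and 31.6 in parental dKO libraries. It had 0 reads in the resistant libraries and 7, 9 and 15 reads (0.35, 0.50 and 0.93 CPM) in the resistant dKO libraries, at least 9.98-fold above the floor. CLMP kept a few reads in resistant cells, 11, 4 and 8, or 0.64, 0.24 and 0.42 CPM. Its parental libraries stood at 82.9, 128 and 165 CPM, the parental dKO libraries at 35.0, 110 and 146, and the resistant dKO libraries at 4.05, 4.70 and 6.41. For CLMP the log2 change was -8.14 ± 0.63 (SE) from parental to resistant and 3.51 ± 0.56 from resistant to resistant dKO cells.

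Like CALB1 and CLMP, the genes ZNF114, NEURL1 and BCAT1 kept reads in every resistant library. ZNF114 measured 35.7, 27.8 and 63.9 CPM in parental, 32.7, 59.5 and 140 in parental dKO, 0.93, 0.55 and 0.58 in resistant and 8.11, 5.75 and 6.41 in resistant dKO libraries. Its parental dKO libraries spread 4.28-fold from lowest to highest, the widest of any gene and group with reads here. NEURL1 was the steadiest of the 8 within the parental dKO group (1.21-fold from lowest to highest), with 232, 185 and 170 CPM in parental and 245, 203 and 232 in parental dKO libraries. NEURL1 stood at 2.27, 1.83 and 1.84 CPM in resistant and 6.72, 6.36 and 8.14 in resistant dKO libraries, a log2 rise of 1.83 ± 0.24 (SE), the smallest of the 8. BCAT1 measured 183, 229 and 176 CPM in parental, 118, 328 and 342 in parental dKO, 2.74, 1.10 and 3.15 in resistant and 21.8, 13.7 and 12.2 in resistant dKO libraries. BCAT1 and ZNF114 were highest in resistant dKO library 1, unlike the other 6 genes, which were highest in library 3.

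**Figure D1:**
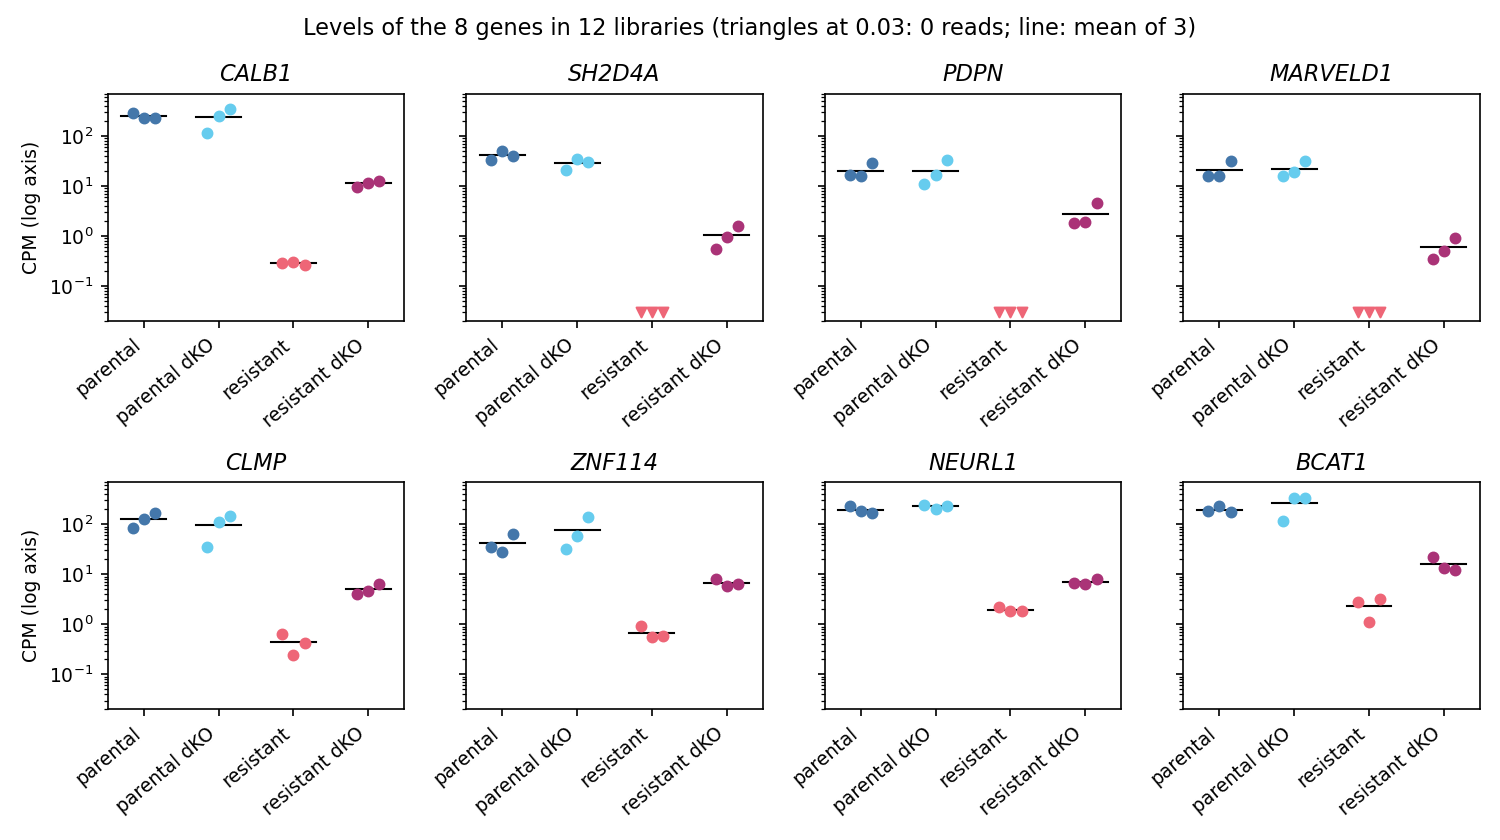
Levels of the 8 genes in CPM (log axis) in each of the 12 libraries, by group, with a line at the mean of 3 and triangles for libraries with 0 reads. For every gene the resistant dKO libraries lie above the resistant and below all parental and parental dKO libraries; CALB1, for example, has means of 244, 235, 0.29 and 11.2 CPM in the order of the axis.

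For all 8 genes the libraries of resistant and parental cells did not overlap (lower in 21.8% of all genes tested), nor did those of resistant dKO and resistant cells (higher in 8.02%). edgeR called 12.8% of genes lower in resistant cells and 0.212% higher in resistant dKO cells, and the choice of genes fixes the count of 8 in each. The return was partial for all 8, which were chosen as genes partly regained. Each resistant dKO library lay below each parental library (20% of all genes) and each parental dKO library (16.9%). Median log2 changes over the 8 genes were -8.92 from parental to resistant, 4.38 from resistant to resistant dKO and -4.33 from parental dKO to resistant dKO cells, against 0.02, 0.04 and -0.00 over all genes tested. These contrasts share libraries, and the fitted values of the 3 genes with 0 reads depend on the prior count. Against the floor the parental level was at least 711-fold higher for SH2D4A, 363-fold for PDPN and 378-fold for MARVELD1.

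Per kilobase of exon the order of the genes changed between groups. In parental cells NEURL1 (39.5 ± 6.5 CPM per kilobase) and CALB1 (34.2 ± 4.8) were highest and did not differ beyond their spread, and MARVELD1 (6.19 ± 2.53) and PDPN (5.43 ± 1.98) were lowest and did not either. Resistant dKO cells were led by ZNF114 (2.26 ± 0.41), followed by CALB1 (1.56 ± 0.22), NEURL1 (1.43 ± 0.19) and BCAT1 (1.35 ± 0.44), whose spreads overlapped. SH2D4A (0.25 ± 0.13) and MARVELD1 (0.17 ± 0.09) were last on this scale. Exon lengths were taken over all annotated transcripts, so a gene expressed from a short isoform reads too low.

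The part of the parental level that returned was computed per gene as the resistant dKO level minus the resistant mean, in percent of the parental mean minus the resistant mean. ZNF114 reached 14.5 ± 2.9% (SD over 3 resistant dKO libraries), PDPN 13.7 ± 7.8% and BCAT1 7.01 ± 2.68%. The order of the first 2 depends on the reference group: relative to parental dKO cells ZNF114 stood at 7.92 ± 1.58%, below PDPN at 13.7 ± 7.8%. Lower shares were found for CALB1 at 4.45 ± 0.63%, CLMP at 3.71 ± 0.98%, MARVELD1 at 2.82 ± 1.43%, NEURL1 at 2.63 ± 0.49% and SH2D4A at 2.52 ± 1.31%. The median was 4.08%. Within each library CALB1 had rank 4 and CLMP rank 5 of the 8, while rank 1 went to ZNF114 in libraries 1 and 2 and to PDPN in library 3. Among the other 18 genes with the same calls the share ran from 1.84% to 109% with a median of 11.4%.

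A share of RNA from parental cells in the resistant dKO libraries was not tested for its part in the return. The spread of the percentages, and their level in other genes absent from resistant cells, are given beside that question. Within single resistant dKO libraries the highest of the 8 shares was 13.3, 5.36 and 7.12 times the lowest in libraries 1, 2 and 3, and 6.18, 4.95 and 8.29 times relative to parental dKO cells. These are extremes over 8 genes chosen for their rise. Relative to parental cells the lowest share in library 1 was that of SH2D4A, from 11 reads. Parental libraries themselves vary, and against each of the 6 parental and parental dKO libraries taken alone (a comparison chosen after the data were seen) the ratio of highest to lowest ran from 4.46 to 12.1.

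Reference genes were those other than the 8 with at least 5 CPM in each of the 6 parental and parental dKO libraries, at most 3-fold from lowest to highest there, and at most 3 reads over the 3 resistant libraries. There were 7. Their resistant dKO level had a median of 1.53% of the parental mean, from 0.82% for DTX3, a Deltex family gene, 1.10% for TNFSF12, a cytokine gene, and 1.42% for LINC02864, a noncoding transcript, up to 1.91% for ZNF518B, 5.57% for AC004870.2 and 6.72% for PBDC1. DTX3 had 15.5 ± 5.7 CPM in parental cells and 3, 2 and 2 reads in the resistant dKO libraries, a pooled share of 0.83% with an exact 95% Poisson interval of 0.33% to 1.71%, which covers counting error only. As the lowest of 7 it was chosen after its value was seen. ZNF518B and AC004870.2 were themselves called higher in resistant dKO cells. The mean shares of the 8 genes, 2.52% to 14.5%, were above 1.71%. By library SH2D4A (1.33%) and MARVELD1 (1.65%) in library 1 were below that bound. These 2 shares rest on 11 and 7 reads of 1 library, whereas the bound is pooled over 3 libraries, so the measures are unlike. The 8 genes were chosen for their rise in resistant dKO cells, so standing above genes not chosen for it supports nothing. Relative to parental dKO cells the upper bound of DTX3 was 1.59% and the 8 genes stood at 2.27% (NEURL1) to 13.7% (PDPN). Relative to parental cells 5 of the 7 reference genes stood below all of the 8, and PBDC1 and AC004870.2 stood above 5 of them. Relative to parental dKO cells ZNF518B (2.46%) stood above NEURL1, and AC004870.2 (9.01%) above all of the 8 but PDPN. Whether parental RNA, in a share of any size, had a part in these levels was not tested.

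**Figure D2:**
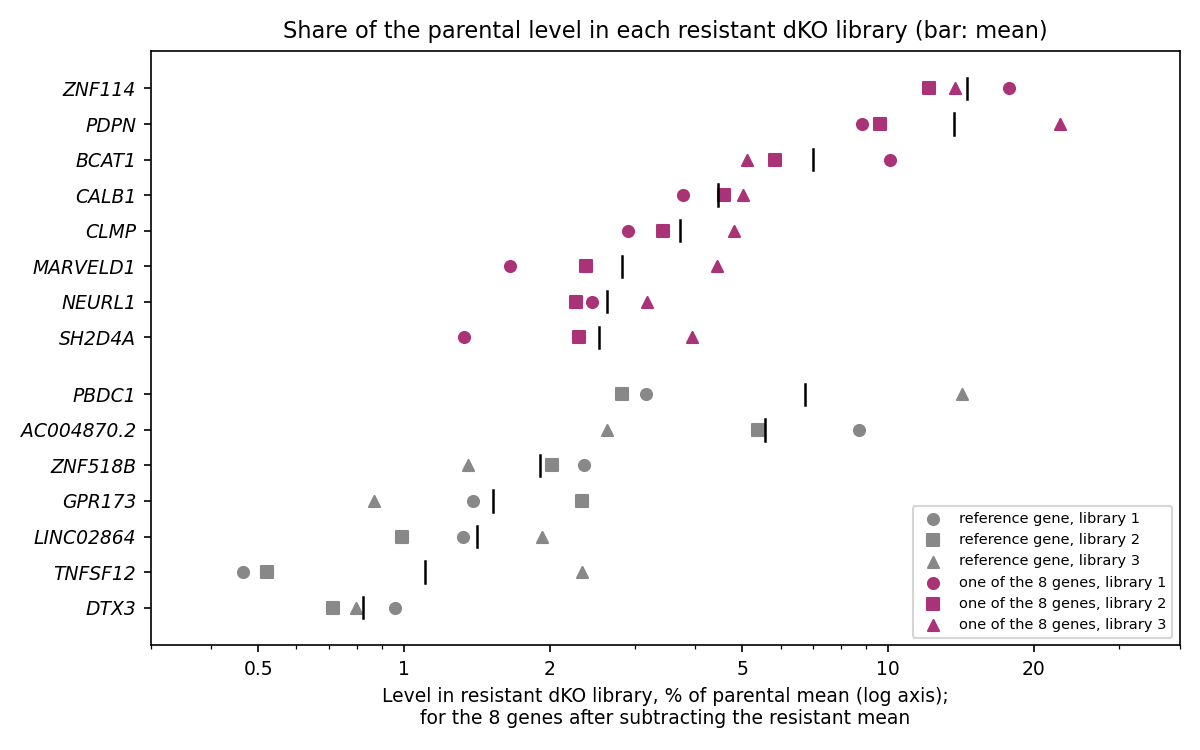
Share of the parental mean in each resistant dKO library (percent, log axis; circles, squares and triangles for libraries 1, 2 and 3; bars for the mean of 3) for the 7 reference genes in grey and the 8 genes in purple, the latter after subtracting the resistant mean. The purple bars run from 2.52% for SH2D4A to 14.5% for ZNF114 and the grey ones from 0.82% for DTX3 to 6.72% for PBDC1, with 5 of 7 grey bars left of every purple one. SH2D4A and MARVELD1 met the limits for reference genes but were left out as members of the 8.

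The knockout contrast in parental cells was not itself used to choose the genes. It shares the parental libraries with a contrast that was, so its values are not independent of the choice. There the 8 genes did not move together: 4 were above and 4 below 0, with a median log2 change of 0.04 against 0.02 over all genes tested. ZNF114 had the largest value, from 42.4 ± 19.0 CPM (SD, n = 3) in parental to 77.4 ± 55.8 in parental dKO cells (0.87 ± 0.46 SE), and SH2D4A the lowest, from 40.8 ± 9.0 to 28.6 ± 6.8 (-0.51 ± 0.36). BCAT1 stood at 0.42 ± 0.42, NEURL1 at 0.21 ± 0.22, MARVELD1 at 0.08 ± 0.42, PDPN at -0.00 ± 0.49, CALB1 at -0.05 ± 0.33 and CLMP at -0.37 ± 0.44. With single libraries left out ZNF114 ranged from 0.12 to 1.27, lowest without parental dKO library 3. The libraries of the 2 groups overlapped for all 8 genes, while 3.2% of all genes tested were above and 3.38% below without overlap. edgeR's quasi-likelihood test called 0 of the 8 and 0% of all genes (adjusted p = 1 for each), with 0 of the 8 at an unadjusted p under 0.05 against 3.00% of all, and DESeq2 (0.0613% of all genes called) and limma-voom called 0 of the 8. A p above the threshold does not show that the levels were equal.

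Libraries of parental and parental dKO cells with the same number deviated together, so the fit with the number as a block was read beside this one. On the 6 parental and parental dKO libraries alone it called SH2D4A lower (-0.51 ± 0.13 SE, edgeR adjusted p = 0.0326, lower in 3 of 3 pairs) and none of the other 7, in a fit that called 7.58% of 15903 genes. With all 12 libraries and the number as a block within each background, SH2D4A had an adjusted p of 0.316 by edgeR and 0 of the 8 were called (0.858% of all genes). CLMP was also lower in 3 of 3 pairs (-0.52 ± 0.23 on the log2 scale, edgeR adjusted p = 0.236), and NEURL1 higher in 3 of 3 (0.23 ± 0.11, edgeR adjusted p = 0.224).

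**Figure D3:**
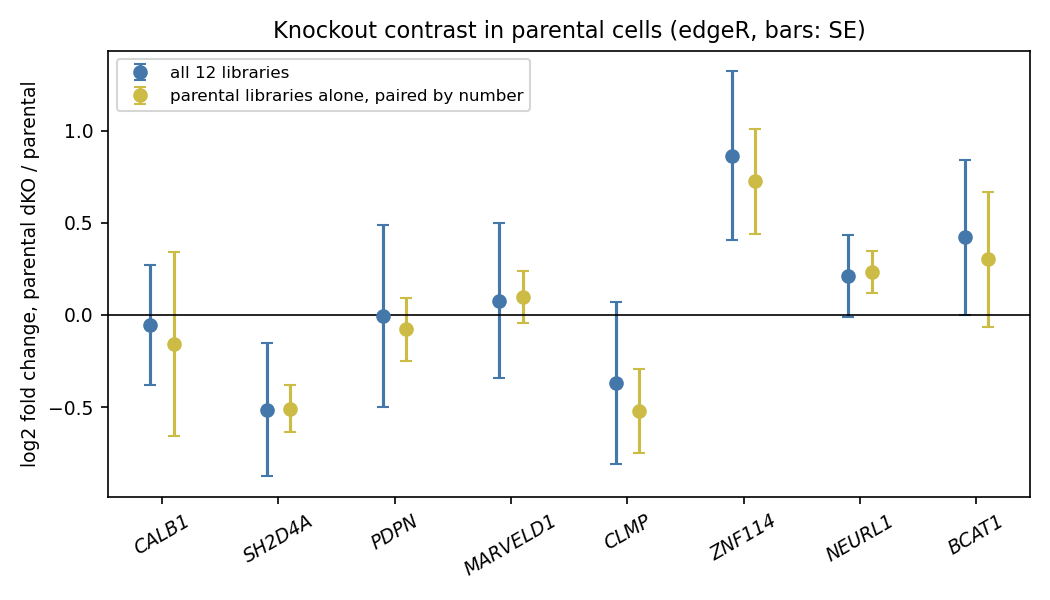
Log2 fold change of parental dKO over parental cells for the 8 genes (points, with SE bars), from the fit of all 12 libraries (blue) and from the parental libraries alone paired by number (yellow). Values run from -0.51 for SH2D4A to 0.87 for ZNF114 in the first fit, and SH2D4A is the gene called in the second.

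Families and pathways of the 8 genes were read from 8 lists with 179 entries, of which 156 were tested. In resistant against parental cells 32 were higher and 25 lower by edgeR (15.2% and 12.8% of all genes). The median log2 change of the 156 was 0.09. The lists were chosen with earlier results of these data known, so the directions of these genes support nothing. Without parental library 2 the number called fell from 57 to 35. In resistant dKO against resistant cells 0 of the 156 were called by edgeR and limma-voom and 2 by DESeq2, with 20 at an unadjusted p under 0.05, against 7.95% of all genes. In parental cells the knockout gave 0 calls with each of the 3 tools and 4 genes at an unadjusted p under 0.05, against 3.00% of all.

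A relative or partner was read for several of the 8 genes, from 12 chosen with results known, so their directions support nothing. By edgeR 4 of the 10 tested were higher in resistant cells and 0 lower (15.2% and 12.8% of all genes), while relatives on the wider lists such as MAL2 and ROCK1 were lower. CALB2, which encodes calretinin, an EF-hand relative of calbindin and also 1 of the 7 mesothelial markers above, was at 0.14 ± 0.14 CPM (SD, n = 3) in parental and 0.26 ± 0.14 in parental dKO cells. It rose to 9.35 ± 2.28 CPM in resistant cells (log2 change 6.03 ± 0.58 SE, edgeR adjusted p = 1.83e-05) and stood at 31.2 ± 9.6 in resistant dKO cells, where the change against resistant cells did not pass (1.74 ± 0.42, edgeR adjusted p = 0.162). CXADR, the coxsackievirus and adenovirus receptor related to CLMP, rose from 10.9 ± 3.6 to 30.2 ± 20.9 CPM (1.47 ± 0.48, edgeR adjusted p = 0.0373), although its libraries overlapped and the call was lost in 6 of 21 alternative fits, among them those without parental library 1 or 2, resistant library 1 or resistant dKO library 2. NEURL4 rose from 63.0 ± 10.6 to 129 ± 20.1 CPM (1.03 ± 0.25, edgeR adjusted p = 0.0081). MARVELD2, the tight junction protein tricellulin, and BCAT2, the mitochondrial counterpart of BCAT1, did not pass (0.59 ± 0.34 and 0.29 ± 0.28, edgeR adjusted p = 0.211 and 0.468). MARVELD3 rose from 0.46 ± 0.24 to 1.82 ± 0.74 CPM (1.97 ± 0.69, edgeR adjusted p = 0.0488), a call lost in 10 of 21 alternative fits. NEURL1B (edgeR adjusted p = 0.0684), the podoplanin partners CD44 and EZR (0.761 and 0.774) and the KRAB cofactor gene TRIM28 (0.531) did not pass, and SH2D4B and CLEC1B were too low to test.

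**Figure D4:**
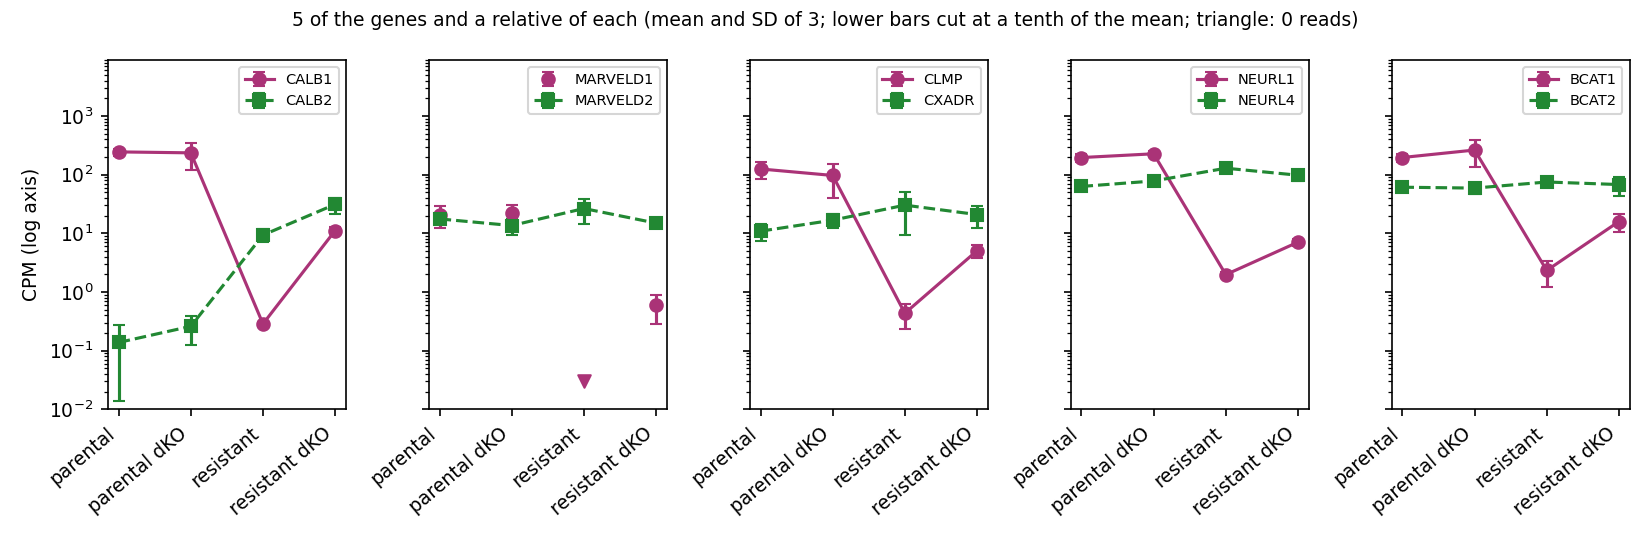
Mean level in CPM (log axis) with SD over 3 libraries in the 4 groups for 5 of the genes (purple) and a relative of each (green dashed), with a triangle for 0 reads; lower error bars are shortened to fit the log axis. CALB2 goes from 0.14 to 9.35 CPM between parental and resistant cells while CALB1 goes from 244 to 0.29 CPM, and BCAT2 has means of 61.1 and 75 CPM.

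Other relatives fell. Among 19 MARVEL domain genes 8 were higher and 2 lower in resistant cells. The lower ones were MAL2, a protein of apical transport, from 213 ± 51.1 to 1.43 ± 0.69 CPM (log2 change -7.21 ± 0.48 SE, edgeR adjusted p = 1.22e-06), and MAL (-3.76 ± 1.32, a call lost in 14 of 21 alternative fits), and CMTM3 was among the higher (3.07 ± 0.27). MAL2 stood at 3.82 ± 0.68 CPM in resistant dKO cells. Of 33 Notch pathway and Neuralized genes 9 were higher and 8 lower. Of the 4 Deltex genes on the list, which encode ubiquitin ligases linked to Notch, 3 were lower and DTX2 did not pass (44.1 ± 6.9 CPM in parental and 36.1 ± 5.3 in resistant cells). DTX3 went from 15.5 ± 5.7 CPM to 1 read over the 3 resistant libraries, DTX1 from 16.1 ± 6.6 CPM to 3 reads and DTX4 from 465 ± 168 to 15.2 ± 3.3 CPM (log2 change -4.94 ± 0.40 SE). In resistant dKO cells DTX3, DTX1 and DTX4 stood at 0.13, 0.32 and 24.6 CPM.

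Calcium-binding genes were 3 higher and 4 lower of 22, with S100A16 from 476 ± 186 to 91 ± 8.2 CPM and S100P from 2.05 ± 2.77 to 0.04 ± 0.03. SH2 adaptors were 3 higher and 4 lower of 19, with SHC2 from 1.01 ± 1.10 to 73.7 ± 55.5 CPM, SHC1 higher (log2 change 1.71 ± 0.37 SE) and SH2B2 lower (-1.52 ± 0.35). Of 13 podoplanin partners 1 was higher, the tetraspanin gene CD9 (2.38 ± 0.52), and 1 lower, the kinase gene ROCK1 (-0.79 ± 0.24, a call lost in 6 of 21 alternative fits). Junction genes of the immunoglobulin family were 4 higher and 0 lower of 11, with ESAM (2.58 ± 0.59) and CADM4 (1.60 ± 0.41). Genes of branched-chain amino acid metabolism were 3 higher and 3 lower of 24: the leucine transporter gene SLC7A5 fell (-1.60 ± 0.48) and SLC43A2 (2.60 ± 0.42) and HIBCH (2.02 ± 0.46) rose. Genes of KRAB zinc finger repression were 1 higher and 3 lower of 15 (CHD3 at 1.85 ± 0.37, SETDB2 at -1.32 ± 0.31, CBX3 at -0.86 ± 0.29, a call lost in 12 of 21 alternative fits). Among 452 genes named ZNF with a number, ZNF114 included, 20 were higher and 77 lower, with a median log2 change of -0.34. Over all genes tested edgeR called 15.2% higher and 12.8% lower, with a median of 0.02.

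Genes near the 8 were read within 500 kb of each start. Of 81 tested neighbours 7 were higher and 14 lower in resistant cells, with a median log2 change of -0.45 against 0.02 over all genes (15.2% and 12.8% of all genes called). Of the tested neighbours 4 of 12 were lower near NEURL1, 3 of 6 near BCAT1 and 3 of 18 near MARVELD1, and differences between these counts were not tested. Beside NEURL1, the ion channel gene CALHM3 went from 13 ± 9.6 CPM to 2 reads over the 3 resistant libraries (edgeR adjusted p = 0.000163) and the noncoding AL121929.2 from 65.9 ± 49.3 to 0.49 ± 0.21 CPM (log2 change -7.05 ± 0.76 SE). NEURL1-AS1, antisense to NEURL1, went from 1.13 ± 0.26 CPM to 1 read. Near CALB1 the noncoding LINC00534 fell (-4.79 ± 0.61), and near MARVELD1 ANKRD2 (4.97 ± 0.76) and CRTAC1 (at least 20-fold higher, from 0 reads) rose. The knockout in resistant cells gave 0 calls among the 81 with edgeR, DESeq2 and limma-voom and 3 at an unadjusted p under 0.05, against 7.95% of all genes. CALHM3 and AL121929.2 stood at 0.52 ± 0.16 and 1.53 ± 0.34 CPM in resistant dKO cells. The strand setting of the counting is not given in the sources used here, so antisense reads cannot be told apart. The antisense and overlapping partners of the 8 genes measured at most 2.07 CPM in any group. That level does not bound antisense reads counted for the 8 genes themselves.

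The 6 other protein-coding genes whose levels over the 12 libraries were most like the mean standardised profile of the 8 were SCN2A, a sodium channel gene (Pearson r = 0.99 on log2 CPM), NTNG1, a netrin family gene (0.99), ARAP3 (0.98), MFAP5, a microfibril gene (0.98), ARHGAP22 (0.98) and RARRES2, which encodes chemerin (0.98). The 8 genes themselves had r from 0.98 to 0.99 with that mean, which they form. With 12 libraries in 4 groups these values mostly restate the difference between parental and resistant cells. SCN2A went from 37.4 ± 20.8 CPM in parental to 0.08 ± 0.09 in resistant and 1.28 ± 0.60 in resistant dKO cells, and ARHGAP22 from 9.26 ± 1.88 to 0.36 ± 0.20 and 2.49 ± 0.34. All 6 were called lower in resistant cells and MFAP5 and ARHGAP22 higher in resistant dKO cells.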

How the data were processed

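The authors deposited raw counts of reads for each gene in 12 libraries, which by the labels' protocols come from poly(A) RNA and a directional kit. The submitters' processing notes name featureCounts 2.0.1, STAR 2.7.10a, Trim Galore 0.6.10 and the build GRCh38. For the annotation, strand setting and treatment of multiply mapped reads nothing is given in the sources used here. A second deposited copy was equal in all 833588 cells. In 2 columns the resistant line's name is misspelled; they were matched to resistant libraries 2 and 3. All 8 genes stood on 1 row each and passed the filter.

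Counts were filtered with filterByExpr in edgeR 4.0.16 (17947 genes), scaled with TMM factors and fitted with a mean per group over all 12 libraries, with the robust quasi-likelihood test and Benjamini-Hochberg adjustment at 0.05. CPM are counts divided by the effective library size, times 1000000, and SE is the log2 change over the square root of F. The members and lists were chosen with earlier results of these data known. Named genes were the 8, up to 3 called genes per list with at least 1 CPM, 6 genes of like profile, up to 6 called neighbours, the 3 lowest and 3 highest reference genes, and KDM5A and KDM5B. The 12 close relatives and partners were listed outside this rule, with results of these data known.

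Parental and parental dKO libraries of the same number correlated in their deviations from group means (0.66, 0.77 and 0.78), so these numbers were taken to pair them; resistant ones gave 0.57, -0.19 and 0.64 and were not. Pairs of libraries within a group differed by more than counting noise (lowest ratio of chi-square to degrees of freedom 26.8). Alternatives were other scaling, filters, DESeq2 1.42.0, limma-voom (limma 3.58.1), replicate blocks, the compared groups alone and leaving out each library. Reads carry no molecular identifiers, so intervals and floors cover counting error only.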

Additional observations from a re-analysis of the deposited data

How the results depend on the processing

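The median share of the parental level that returned, 4.08%, stayed within the spread over the resistant dKO libraries under every scaling and filter tried and was 3.65% to 4.40% when single libraries were left out. The median over the reference genes, 1.53%, moved to 1.90% against parental dKO cells and to 1.97% with no limit on spread (17 genes). With single libraries left out it ranged from 1.53% to 2.7%. The limits for reference genes were applied anew in each of these refits, so the list of genes could change along with the levels. With at least 20 CPM no reference gene was left. The number of the 8 called in parental cells was 1 on the parental libraries alone with the replicate block and 0 in the other fits, 0 to 0 with single libraries left out. Related genes called in resistant against parental cells numbered 57, and 35 to 62 with single libraries left out, lowest without parental library 2. In the resistant knockout contrast they numbered 0 with edgeR (0 to 0 with single libraries left out), 2 with DESeq2, 7 with no filter beyond 1 count and 13 with a replicate block within backgrounds, where the numbers were not taken to pair the resistant libraries. Without parental library 3 the ZNF114 share was 19.0% in place of 14.5%.

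Log2 changes near 0 in the parental knockout contrast changed sign. With single libraries left out CALB1 ranged from -0.41 to 0.26 (0.06 without parental library 1). PDPN was 0.0069 with DESeq2, 0.0067 with median-of-ratios factors, 0.013 with at least 1 CPM in 3 libraries and 0.0061 with the compared groups alone, and ranged from -0.57 to 0.32 with single libraries left out. In the same refits MARVELD1 ranged from -0.273 to 0.46 and CLMP from -0.79 to 0.022. Of 481 refits of the 23 named relatives, 436 kept the call and 45 lost it, with 0 reversed. Besides the genes named with such losses above, SLC7A5 lost it without parental library 2 or resistant library 2 or 3, CADM4 without parental or resistant library 1, S100P without parental library 2 and ESAM with the block within backgrounds. The cause was not tested. Depth limits SH2D4A and MARVELD1 most, with 54 and 31 reads over the resistant dKO libraries.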
